A study of Drosophila melanogaster with 12 samples.

Results

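BEL/Pao elements are LTR retrotransposons, mobile sequences that copy themselves through RNA. The rows described here are those typed as LTR retrotransposon whose name starts with BEL, BATUMI, DIVER, ROO, MAX or NINJA. The rule found 14 rows of 203 in the H3K9me3 table and the same 14 of 199 in the H3K36me3 table, and all 14 had a value above 0 in all 4 mean columns. They belong to 7 elements (BATUMI, BEL, DIVER, DIVER2, MAX, ROO and ROOA), each with an internal row (suffix I) and a terminal row (suffix LTR). No name started with NINJA. The tables call these rows LTR retrotransposons and give no superfamily, so the grouping as BEL/Pao rests on the names and was not checked against sequence.

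The cells were S2, a long-established line from embryos of Drosophila melanogaster. They received RNAi (interference by double-stranded RNA) for 5 days, either against KDM4A or, as the control, against GFP, which flies do not encode. Histone H3 trimethylated at lysine 9 (H3K9me3) or at lysine 36 (H3K36me3) was precipitated from crosslinked chromatin and sequenced. Per the labels there were 12 libraries, 2 for each combination of an RNAi treatment (KDM4A or GFP) with an H3K9me3 ChIP, an H3K36me3 ChIP or an input. A row has 1 mean enrichment per treatment, so the differences below carry no error and no p-value, and the depth behind each value is unknown. Nothing in the tables shows how far KDM4A was depleted. All cells were of 1 line, so nothing here extends to fly tissues.

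As background, the internal part of such an element encodes the structural Gag protein and the Pol enzymes (protease, reverse transcriptase, RNase H and integrase). It is flanked by identical long terminal repeats (LTRs), which carry the promoter and the signals for the end of the transcript. BEL/Pao is one of the main superfamilies of LTR retrotransposons in animals, beside Ty3/gypsy and Ty1/copia, and roo is among the most abundant transposon families of the fly genome. H3K9me3 is the mark bound by the heterochromatin protein HP1a, and H3K36me3 is laid down over transcribed gene bodies. KDM4A is a Jumonji-domain demethylase of a family that acts on methylated H3K9 and H3K36, and the comparison asked how its depletion altered these marks over repeats.

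The BEL/Pao elements were divided by their H3K9me3 level into a high and a low set. DIVER2, BATUMI, MAX and ROOA had all of their values above 2 in both treatments, whereas BEL, DIVER and ROO had all of theirs below 2; this division was chosen after the values were seen. DIVER2_I had the highest level, 5.35 in KDM4A RNAi cells and 4.53 in GFP RNAi cells. DIVER_LTR had the lowest, 0.894 in KDM4A RNAi cells and 0.871 in GFP RNAi cells. The highest member was 5.98-fold above the lowest in KDM4A RNAi cells and 5.20-fold above it in GFP RNAi cells, a wider span than the 20.3% that was the largest H3K9me3 difference of a member between treatments.

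Among the internal rows of the high set, BATUMI_I stood at 4.65 in KDM4A RNAi cells and 4.45 in GFP RNAi cells. MAX_I stood at 3.94 in KDM4A RNAi cells and 3.90 in GFP RNAi cells. ROOA_I, the internal part of an element named after roo, stood at 3.65 in KDM4A RNAi cells and 3.55 in GFP RNAi cells. These 3 and DIVER2_I ranked between 2 and 18 of 122 LTR rows after KDM4A RNAi and between 4 and 16 after GFP RNAi. The terminal rows of the same elements were lower than their internal rows. DIVER2_LTR had an enrichment of 4.17 in KDM4A RNAi cells and 3.80 in GFP RNAi cells, and ROOA_LTR had 2.96 in KDM4A RNAi cells and 2.61 in GFP RNAi cells. MAX_LTR had 2.44 in KDM4A RNAi cells and 2.03 in GFP RNAi cells, and BATUMI_LTR had 2.37 in KDM4A RNAi cells and 2.82 in GFP RNAi cells. BATUMI_LTR was the row of the high set with the lower value in KDM4A RNAi cells. The terminal rows of the high set ranked between 10 and 67 of 122 LTR rows after KDM4A RNAi and between 12 and 77 after GFP RNAi. The median of all LTR rows was 2.48 in KDM4A RNAi cells and 2.38 in GFP RNAi cells. MAX_LTR was below it in both treatments, and BATUMI_LTR in KDM4A RNAi cells. In GFP RNAi cells MAX_LTR was close to BEL_I, the top row of the low set, at 1.74.

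In the low set, BEL_I had an H3K9me3 enrichment of 1.91 in KDM4A RNAi cells and 1.74 in GFP RNAi cells, and BEL_LTR had 1.53 in KDM4A RNAi cells and 1.49 in GFP RNAi cells. DIVER_I was at 1.37 in KDM4A RNAi cells and 1.29 in GFP RNAi cells. ROO_I was at 0.953 in KDM4A RNAi cells and 1.07 in GFP RNAi cells, and ROO_LTR at 1.417 in KDM4A RNAi cells and 1.420 in GFP RNAi cells. These rows, with DIVER_LTR, ranked between 82 and 108 of 122 LTR rows after KDM4A RNAi and between 84 and 112 after GFP RNAi. Elements that share a name stem lay in different sets. DIVER2_I was 3.90-fold above DIVER_I in KDM4A RNAi cells and 3.52-fold above it in GFP RNAi cells, and ROOA_I was 3.83-fold above ROO_I in KDM4A RNAi cells and 3.30-fold above it in GFP RNAi cells. How reads that match several related elements were assigned is not given in the sources used here, so such reads may be shared between ROO and ROOA or between DIVER and DIVER2.

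**Figure D1:**
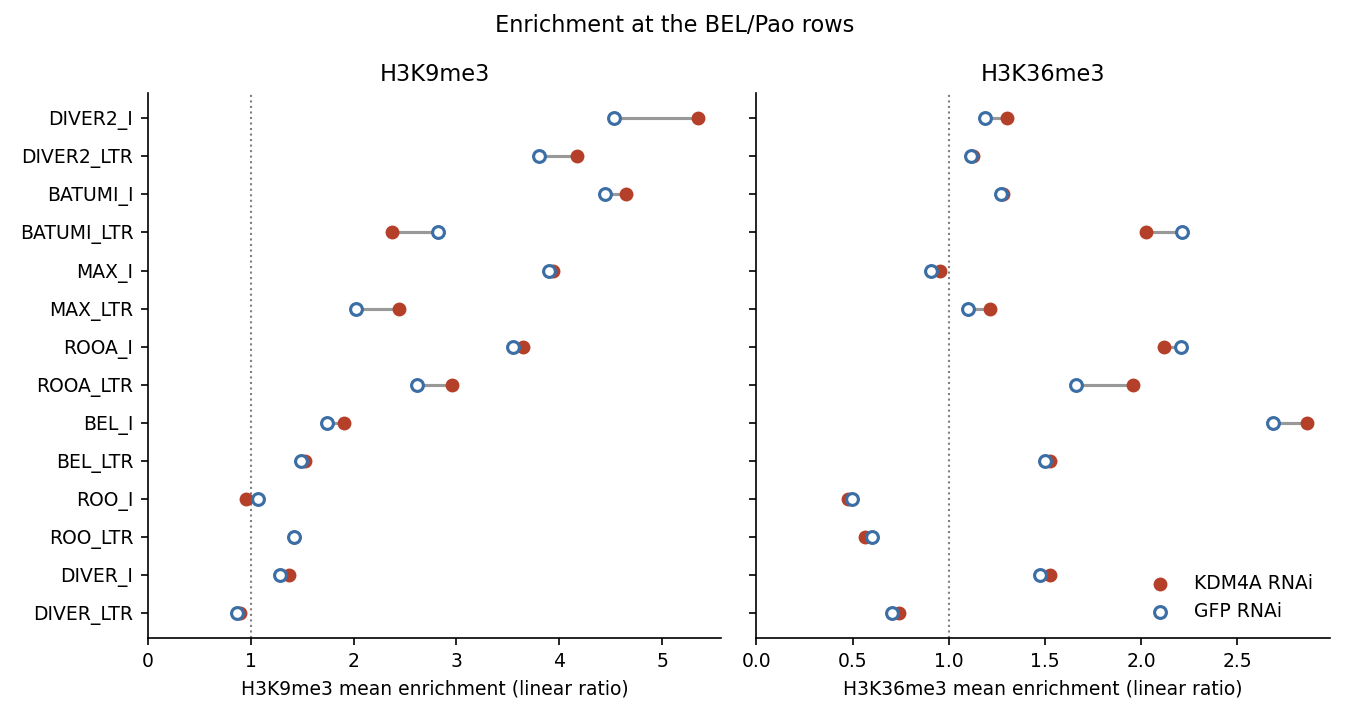
Mean enrichment (linear ratio, x axis from 0) of H3K9me3 (left) and H3K36me3 (right) at each of the 14 BEL/Pao rows, with KDM4A RNAi as filled and GFP RNAi as open circles joined by a line; the dotted line marks 1. The span over the elements is wider than the gap between treatments at any row, and DIVER2_I (5.35 after KDM4A RNAi, 4.53 after GFP RNAi) heads H3K9me3 while BEL_I (2.86 after KDM4A RNAi, 2.69 after GFP RNAi) heads H3K36me3.

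H3K36me3 ordered the elements in another way. BEL_I, low in H3K9me3, had the highest H3K36me3 of the members, 2.86 in KDM4A RNAi cells and 2.69 in GFP RNAi cells, and ranked 2 of 118 LTR rows in both treatments. ROOA_I followed with 2.12 in KDM4A RNAi cells and 2.21 in GFP RNAi cells, which ranked 4 in both. BATUMI_LTR stood at 2.02 in KDM4A RNAi cells (rank 6) and 2.21 in GFP RNAi cells (rank 3). ROOA_LTR stood at 1.96 in KDM4A RNAi cells (rank 7) and 1.66 in GFP RNAi cells (rank 9). These 4 rows come from 3 elements, of which BEL was in the low set by H3K9me3. DIVER2_I, the member with the most H3K9me3, was near the middle of the members in H3K36me3, at 1.30 in KDM4A RNAi cells and 1.19 in GFP RNAi cells.

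The other H3K36me3 levels spanned the range below these. DIVER_I and BEL_LTR, close to each other, had 1.524 and 1.526 in KDM4A RNAi cells and 1.475 and 1.498 in GFP RNAi cells. BATUMI_I, MAX_LTR and DIVER2_LTR lay between 1.13 and 1.28 in KDM4A RNAi cells and between 1.101 and 1.27 in GFP RNAi cells. MAX_I, at 0.954 in KDM4A RNAi cells and 0.910 in GFP RNAi cells, and DIVER_LTR, at 0.741 in KDM4A RNAi cells and 0.704 in GFP RNAi cells, were below 1. ROO was the lowest element. ROO_I had 0.474 in KDM4A RNAi cells and 0.498 in GFP RNAi cells, and ROO_LTR had 0.565 in KDM4A RNAi cells and 0.601 in GFP RNAi cells. ROO, the abundant roo family, was thus low in both marks, whereas ROOA was high in both: ROOA_I had 4.47-fold the H3K36me3 of ROO_I in KDM4A RNAi cells and 4.43-fold in GFP RNAi cells.

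**Figure D2:**
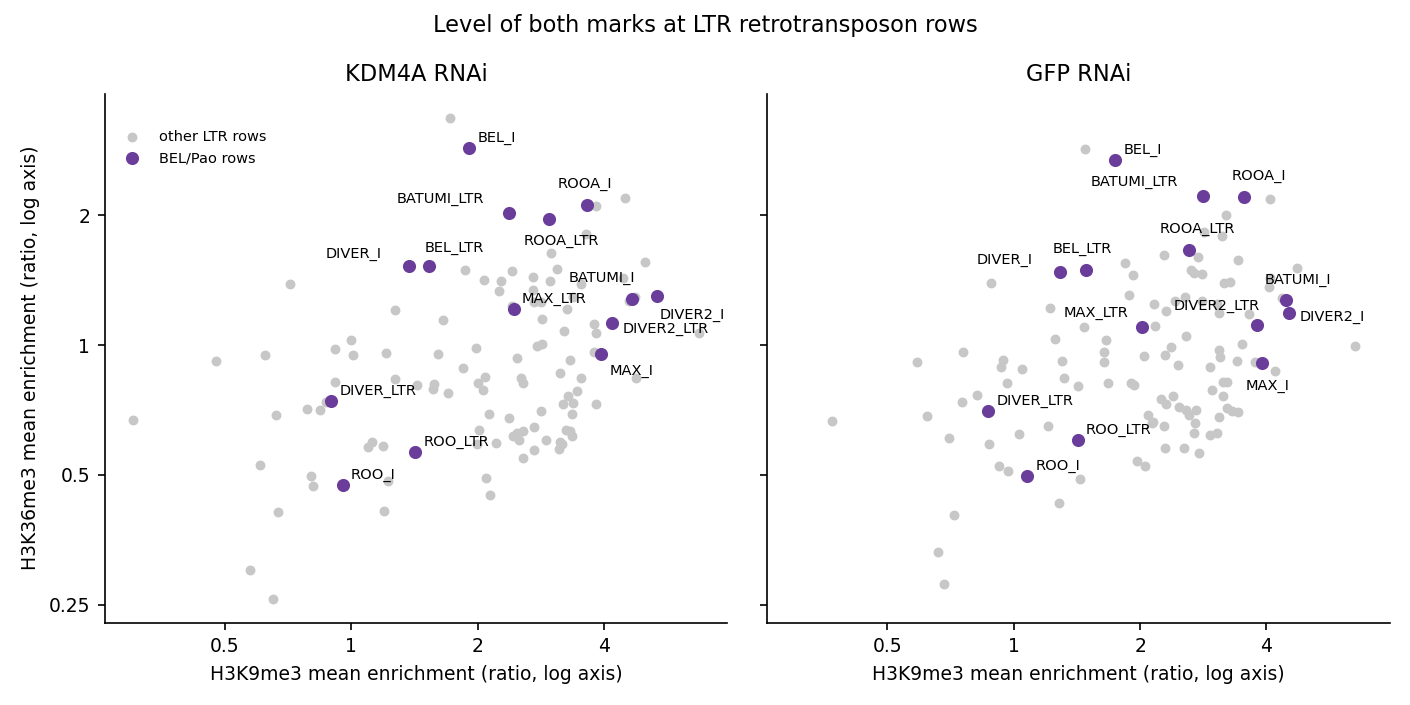
H3K9me3 (x axis) against H3K36me3 (y axis) mean enrichment, both on log axes, for LTR rows present in both tables after KDM4A RNAi (left) and GFP RNAi (right), with BEL/Pao rows in purple and other LTR rows in grey. BEL_I lies at high H3K36me3 and low H3K9me3, ROO rows at low values of both, and 10 of the 14 BEL/Pao rows above 1 in H3K36me3 in either treatment.

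Set beside other LTR retrotransposons, BEL/Pao rows had a higher median of H3K36me3, whereas for H3K9me3 in GFP RNAi cells the direction depended on the part. The median H3K9me3 level of the 14 rows was 2.40 in KDM4A RNAi cells and 2.32 in GFP RNAi cells, and that of the 108 other LTR rows was 2.50 in KDM4A RNAi cells and 2.38 in GFP RNAi cells. On the log2 scale the members' GFP RNAi median differed from that of the other LTR rows by -0.04 over all rows, by 0.46 over internal rows and by -0.18 over terminal rows. The members' terminal median in GFP RNAi cells was that of MAX_LTR, 2.03, and the next row up was ROOA_LTR at 2.61. In KDM4A RNAi cells the members' terminal median, 2.37, lay between that of terminal rows named after gypsy (2.65) and that of the remaining terminal rows (2.27). Their internal median there, 3.65, was above that of internal rows named after gypsy (3.02) and that of the remaining internal rows (2.41). The GFP RNAi difference in H3K36me3 was 0.47 over all rows, 0.48 over internal rows and 0.34 over terminal rows. The median H3K36me3 level of the 14 rows was 1.29 in KDM4A RNAi cells and 1.23 in GFP RNAi cells, and that of the 104 other LTR rows was 0.829 in KDM4A RNAi cells and 0.890 in GFP RNAi cells. An H3K36me3 level above 1 was found at 10 of 14 BEL/Pao rows in each treatment, against 34 of 104 other LTR rows in KDM4A RNAi cells and 36 of 104 in GFP RNAi cells. Of all 199 repeats, 76 were above 1 in KDM4A RNAi cells and 80 in GFP RNAi cells. The 14 rows come from 7 elements, and these differences were described without a test.

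After KDM4A RNAi, H3K9me3 was above the GFP RNAi value at 11 of the 14 BEL/Pao rows and below it at 3. Of all 203 repeats, 64.5% were above and 35.5% below, so the members' count was near the background. Among rows at or above the table's median level 6 members were above and 1 below, with 82.4% of all such rows above. The largest difference upward was at MAX_LTR, the terminal repeat of MAX, with 2.44 in KDM4A RNAi cells and 2.03 in GFP RNAi cells, a log2 ratio of 0.27. DIVER2_I came next with a log2 ratio of 0.24, then ROOA_LTR with 0.18. BEL_I and DIVER2_LTR each had 0.13.

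The 3 rows with less H3K9me3 after KDM4A RNAi were BATUMI_LTR, ROO_I and ROO_LTR. BATUMI_LTR was 16.0% lower in KDM4A RNAi cells, with a log2 ratio of -0.25, while BATUMI_I, the coding part of the same element, had a log2 ratio of 0.06. ROO_I had a log2 ratio of -0.17 and ROO_LTR, at -0.003, differed by 0.003 in linear units. The remaining 6 rows had ratios from 0.01 at MAX_I to 0.09 at DIVER_I.

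Only MAX_LTR, 1.203 times higher, was past a minimum change of 1.2 times in H3K9me3. No member was past it downward, but BATUMI_LTR, 1.191 times lower, fell just short of it. Over all repeats 4.93% were at least 1.2 times higher and 7.39% at least 1.2 times lower. At a minimum change of 1.5 times no member was called (0.493% of all repeats higher and 2.46% lower). The median log2 ratio of the 14 rows was 0.05, against 0.05 for the 108 other LTR rows and 0.04 for all 203 repeats. With each column divided by its median over all rows, 10 members were above and 4 below (55.7% of all repeats above). With the median over LTR rows as divisor 7 were above and 7 below (45.3% of all repeats above), and the members' median turned to -0.006. The direction of H3K9me3 at the members as a group therefore depended on the scaling, which is not stated for these files.

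**Figure D3:**
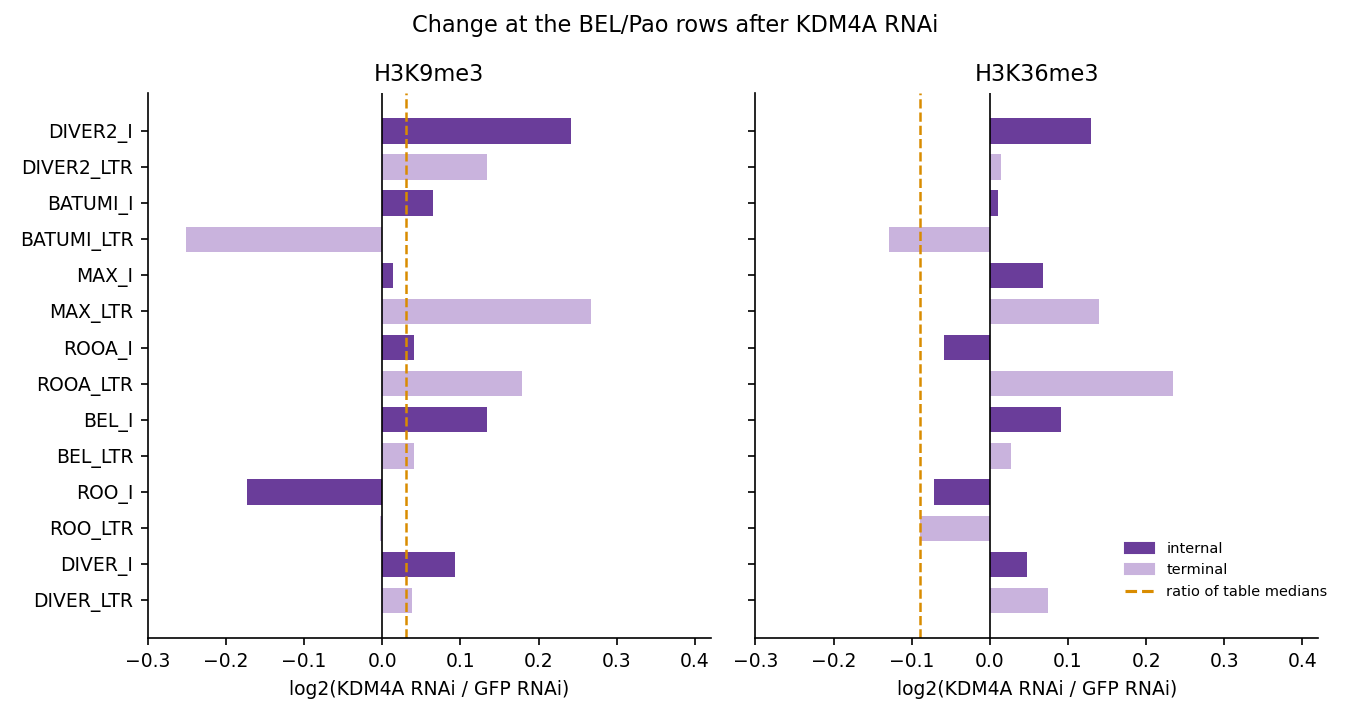
The log2 ratio of KDM4A RNAi to GFP RNAi mean enrichment (x axis) at each BEL/Pao row, for H3K9me3 (left) and H3K36me3 (right), with internal rows in dark and terminal rows in light purple; the dashed line is the log2 ratio of the column medians over all rows of the table, 0.03 and -0.09. In H3K36me3 the bars of 13 rows end to the right of the dashed line or, at ROO_LTR, on it to within 0.001, and BATUMI_LTR ends to its left.

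H3K36me3 after KDM4A RNAi was above the GFP RNAi value at 10 of the 14 BEL/Pao rows and below it at 4, whereas 33.7% of all 199 repeats were above and 65.3% below. Among rows at or above the table's median level 9 members were above and 2 below, with 37% of all such rows above. The terminal repeat of ROOA had the largest difference, with 1.96 in KDM4A RNAi cells and 1.66 in GFP RNAi cells, a log2 ratio of 0.23. MAX_LTR had a log2 ratio of 0.14, DIVER2_I of 0.13 and BEL_I of 0.09. DIVER_LTR, MAX_I and DIVER_I lay between 0.05 and 0.07, and BEL_LTR, DIVER2_LTR and BATUMI_I at 0.03, 0.01 and 0.01.

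The 4 rows with less H3K36me3 in KDM4A RNAi cells were BATUMI_LTR, with a log2 ratio of -0.13, ROO_LTR with -0.09, ROO_I with -0.07 and ROOA_I with -0.06. Both parts of ROO were thus lower, and for BATUMI and ROOA the internal and terminal rows lay on opposite sides of 0. No member reached a change of 1.2 times in H3K36me3 in either direction. Over all repeats 4.02% were at least 1.2 times higher and 6.03% at least 1.2 times lower. At 1.5 times no member was called, against 2.51% of all repeats higher and 0% lower.

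The median H3K36me3 log2 ratio of the 14 rows was 0.04, against -0.07 for the 104 other LTR rows and -0.05 for all 199 repeats. Of the other LTR rows 26 were above and 78 below, made up of 9 and 18 for the rows named after gypsy and 17 and 60 for the rest. Counted per element, as the mean of the log2 ratios of both parts, 5 of 7 BEL/Pao elements were above, against 11 of 44 other LTR elements. After division by the median over all rows, 13 members were above and 1 below (62.3% of all repeats above), and after division by the median over LTR rows the members' numbers were the same (70.9% of all repeats above). The column medians had log2 ratios of -0.089 over all rows and -0.115 over LTR rows. Either division therefore raised every ratio by a constant and could not turn a positive median negative. The members' median became 0.13 and 0.15. Individual ratios are small and no error between libraries can be attached to them.

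**Figure D4:**
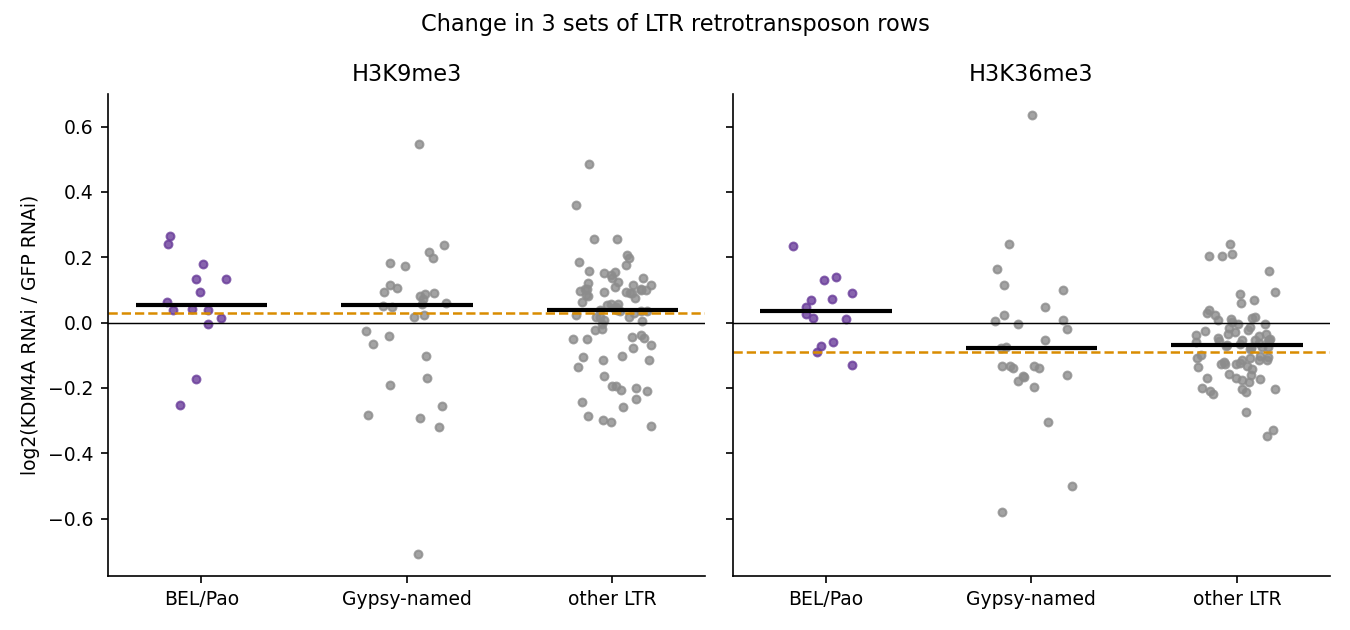
The log2 ratio of KDM4A RNAi to GFP RNAi mean enrichment (y axis) for each BEL/Pao, Gypsy-named and other LTR row, in H3K9me3 (left) and H3K36me3 (right); thick bars are medians, the dashed line is the log2 ratio of the column medians over the whole table, and points are spread sideways at random. In H3K9me3 the 3 medians are 0.05, 0.05 and 0.04, and in H3K36me3 they are 0.04, -0.08 and -0.07.

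The changes of both marks at an element are set side by side without a measure of their relation. If the enrichment was taken over input, which is not stated, the marks of 1 treatment share their input libraries. DIVER2 had a mean log2 ratio over its parts of 0.19 in H3K9me3 and 0.07 in H3K36me3. The mean for MAX was 0.14 in H3K9me3 and 0.10 in H3K36me3, and that for ROOA 0.11 in H3K9me3 and 0.09 in H3K36me3. BEL and DIVER had 0.09 and 0.07 in H3K9me3 and 0.06 each in H3K36me3. BATUMI had -0.09 in H3K9me3 and -0.06 in H3K36me3, and ROO had -0.09 in H3K9me3 and -0.08 in H3K36me3. BATUMI and ROO were thus the elements with negative means before any division by a median, in BATUMI through its terminal row alone. In H3K36me3 the column medians had log2 ratios of -0.089 over all rows and -0.115 over LTR rows. In H3K9me3 these log2 ratios were 0.031 and 0.059. Division by either median therefore raised every H3K36me3 ratio and lowered every H3K9me3 ratio. The H3K36me3 means of BATUMI and ROO became positive, whereas their H3K9me3 means, already negative, could only fall. The order of the 14 rows by level hardly differed between KDM4A RNAi and GFP RNAi cells, with a Spearman's rho of 0.98 in H3K9me3 and 0.99 in H3K36me3 across rows, which are not independent.

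The internal part carried more H3K9me3 than the terminal repeat in 6 of 7 BEL/Pao elements in both treatments. In BATUMI the internal row was 1.96-fold above the terminal row in KDM4A RNAi cells and 1.57-fold above it in GFP RNAi cells. In MAX it was 1.62-fold above in KDM4A RNAi cells and 1.93-fold above in GFP RNAi cells. ROO was the exception, its terminal row being 1.49-fold above the internal row in KDM4A RNAi cells and 1.32-fold above it in GFP RNAi cells. The median log2 difference, internal minus terminal, was 0.36 in KDM4A RNAi cells and 0.44 in GFP RNAi cells. In the 48 other LTR elements with both parts it was 0.16 in KDM4A RNAi cells and 0.20 in GFP RNAi cells, and the internal part had the higher value in 31 of them in KDM4A RNAi cells and in 32 in GFP RNAi cells. The 14 Gypsy-named elements among them were like BEL/Pao in this, with the internal part higher in 12 in both treatments and medians of 0.50 in KDM4A RNAi cells and 0.25 in GFP RNAi cells. A terminal row can also draw reads from solo LTRs, which remain where the internal part has been lost, and from either end of a full element.

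In H3K36me3 the parts did not share an order. The internal row was the higher in BEL, DIVER, DIVER2 and ROOA, and the terminal row in BATUMI, MAX and ROO, in both treatments. DIVER_I was 2.06-fold above DIVER_LTR in KDM4A RNAi cells and 2.10-fold above it in GFP RNAi cells, and BEL_I was 1.88-fold above BEL_LTR in KDM4A RNAi cells and 1.79-fold above it in GFP RNAi cells. BATUMI_LTR was 1.58-fold above BATUMI_I in KDM4A RNAi cells and 1.74-fold above it in GFP RNAi cells, the reverse of its order in H3K9me3. MAX also had more H3K9me3 in its internal part and more H3K36me3 in its terminal part, and ROO was the element whose terminal row was the higher in both marks. Of the 44 other LTR elements, the internal row was the higher in 24 in KDM4A RNAi cells and 30 in GFP RNAi cells.

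**Figure D5:**
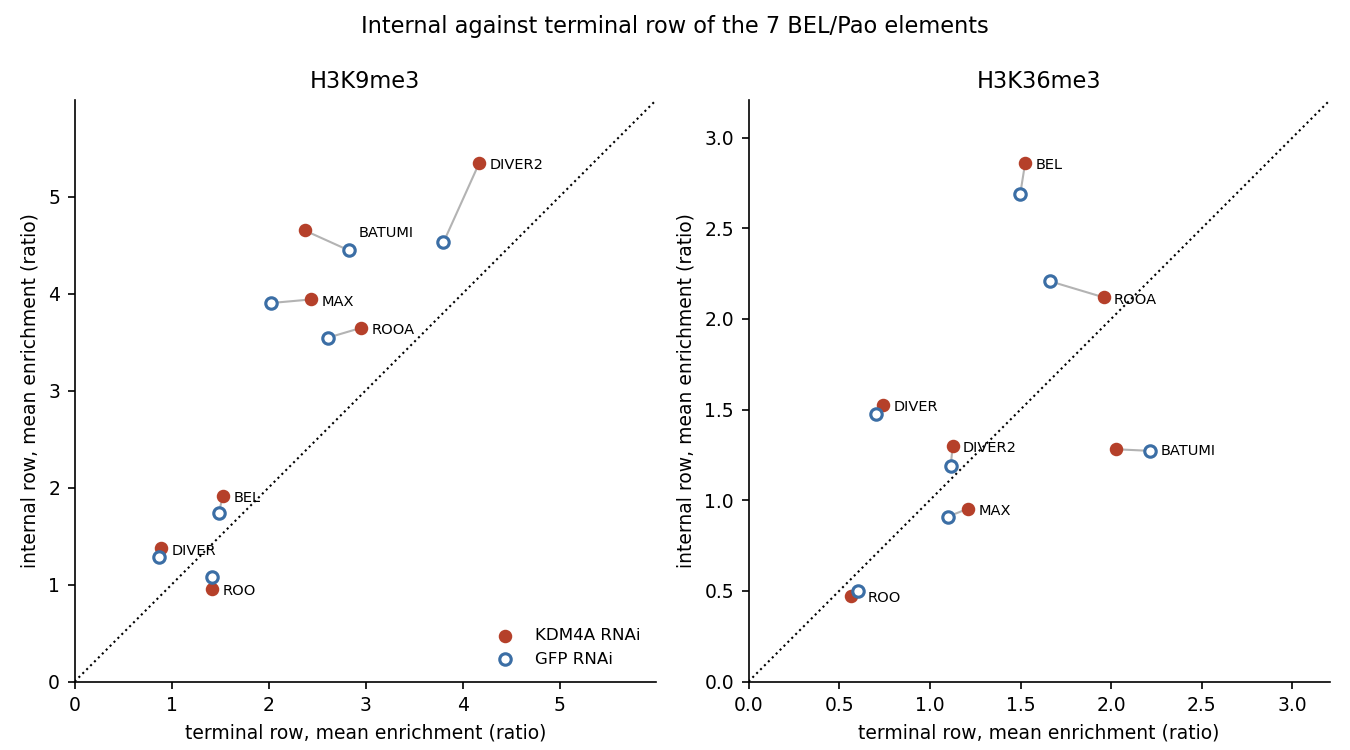
Mean enrichment of the internal row (y axis) against that of the terminal row (x axis) of the 7 BEL/Pao elements, for H3K9me3 (left) and H3K36me3 (right), with KDM4A RNAi as filled and GFP RNAi as open circles joined by a line; the dotted line marks equal values. In H3K9me3 every element but ROO lies above the dotted line, and in H3K36me3 BATUMI, MAX and ROO lie below it.

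The parts of 1 element are joined in full copies, but their treatment differences were not equal. Their log2 ratios, KDM4A RNAi over GFP RNAi, differed by a median of 0.14 in H3K9me3, from 0.06 in DIVER to 0.32 in BATUMI. In H3K36me3 they differed by a median of 0.07, from 0.02 in ROO to 0.29 in ROOA. Both parts had the same sign in 6 of 7 elements in H3K9me3, with BATUMI as the exception, and in 5 of 7 in H3K36me3, with BATUMI and ROOA as exceptions. The H3K9me3 count includes ROO, with ROO_LTR at only -0.003, and MAX, with MAX_I at only 0.01. Of the other LTR elements with both parts, 25 of 48 had the same sign in H3K9me3 and 30 of 44 in H3K36me3. The members' counts depended on the scaling. After division by the median over LTR rows, the parts of BEL, DIVER, MAX and ROOA also had opposite signs in H3K9me3. In H3K36me3 those of ROOA then had the same sign.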

How the data were processed

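Values came from 2 deposited tables, 1 per antibody, in which the authors give a linear enrichment ratio per repeat row and RNAi treatment, which the file headers call a mean. The submitters' processing notes list Bowtie and MACS2 but neither versions nor what each was used for. Not given in the sources used here are the genome build, the repeat library, the handling of reads with many matches, the denominator of the ratio, the depth scaling and the libraries in each mean. Chromatin was fixed with 1% paraformaldehyde for 10 min, sheared in 30 cycles and precipitated with 5 µg of antibody, per the labels.

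Log2 ratios of KDM4A RNAi to GFP RNAi were computed without a pseudocount, since every value was above 0 (Python 3.11.15, pandas 2.3.3). On simulated columns made with known ratios and no noise, the computation gave those ratios back. That checked the arithmetic only, and not the effect of noise or scaling. The planned test across libraries needs values per library and was not run. A call is a change of at least 1.2 times. Every row found by the name rule is named. The members, the comparison sets and the call were chosen with earlier results of these data known. Sequences and positions of the elements were not analysed here.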

Additional observations from a re-analysis of the deposited data

How the results depend on the processing

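No paired analysis was possible because the deposited values are means, and for the same reason no replicate could be left out. There is no spread to set a new value against, so values are given without a verdict; the cause was not tested, apart from centring, which subtracts 1 constant from every log2 ratio of a mark (in H3K9me3 0.031 for all rows and 0.059 for LTR rows, in H3K36me3 -0.089 and -0.115). The median H3K9me3 log2 ratio of the 14 rows (0.053) became 0.043 with a pseudocount of 1, 0.022 centred on all rows, -0.006 centred on LTR rows, 0.065 over rows at or above the table's median level, 0.058 as a mean and 0.087 with 1 value per element. That of H3K36me3 (0.037) became 0.022, 0.126, 0.152, 0.047, 0.035 and 0.061 under the same settings. Numbers above and below in H3K9me3 (11 and 3) were 10 and 4 centred on all rows, 7 and 7 centred on LTR rows, 6 and 1 at or above the median level, and 5 and 2 per element. In H3K36me3 (10 and 4) they were 13 and 1, 13 and 1, 9 and 2, and 5 and 2. At a minimum change of 1.5 times 0 members were called in either mark, against 1 at 1.2 times (MAX_LTR in H3K9me3). Single ratios that changed sign were, in H3K9me3, MAX_I (-0.017 centred on all rows and -0.045 on LTR rows), BEL_LTR (-0.019 on LTR rows), DIVER_LTR (-0.021) and ROOA_I (-0.018); in H3K36me3, centred on all rows and on LTR rows, ROOA_I (0.031 and 0.057), ROO_I (0.018 and 0.044) and ROO_LTR (0.000 and 0.026). The median log2 difference of internal and terminal rows in H3K9me3 (0.358 in KDM4A RNAi and 0.441 in GFP RNAi cells) was 0.296 and 0.290 with a pseudocount of 1 and 0.385 and 0.383 as a mean. In H3K36me3 (0.114 and 0.093) it was 0.076 and 0.050, and 0.144 and 0.152. The log2 ratio of the members' median GFP RNAi level to that of other LTR rows, -0.039 in H3K9me3, was 0.462 for internal and -0.182 for terminal rows; in H3K36me3 (0.467) it was 0.480 and 0.343. The depth behind every value is unknown.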
